A study of Homo sapiens with 12 samples.

Results

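U937 cells treated with a LILRB3 antagonist antibody were compared with U937 cells treated with nonspecific IgG. U937 is a human pro-monocytic line that carries a PICALM-MLLT10 fusion. The 2 groups hold 3 libraries each, 6 of the 12 libraries in the series, and were chosen as the columns of the count table headed for these 2 treatments. Cells of both groups had first received 50 ng/mL interferon gamma, and per the labels the antibody was then present for 72 hours at a concentration written as 5 mg/mL, a unit left as it stands. Both groups are thus stimulated cells of a single line, with no unstimulated group beside them. The labels do not tie the libraries to separate cultures, so the p-values below reflect only the spread between these libraries, which may be technical. The table holds 27825 genes with a symbol, of which 13778 passed a filter on low counts and were tested, and the account below is about the 13339 tested genes outside lists of ribosomal, respiratory chain and cell cycle genes.

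LILRB3 is an inhibitory receptor of monocytes and granulocytes. Its cytoplasmic tail carries immunoreceptor tyrosine-based inhibitory motifs (ITIMs), which recruit SHP phosphatases once Src family kinases have phosphorylated them, and so dampen signals from activating receptors. Those activating receptors signal through adaptors with activating motifs (ITAMs), such as TYROBP and FCER1G. An antagonist antibody is meant to keep the receptor from being engaged, and interferon gamma, a classical activator of monocytes, was used on all cells here.

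Each library held between 17053190 and 18833088 counts. LILRB3 itself was too low to test, at 2, 1 and 2 counts with IgG and 5, 2 and 3 with the antagonist. Among the defining markers of the cell, CD33 had 63.6, 63.04 and 69.5 CPM in the IgG libraries and 65.7, 66.6 and 65.9 CPM in the antagonist libraries, and the myeloid factor SPI1 had 214, 260.0 and 293 CPM in the IgG libraries and 277, 256 and 275 CPM in the antagonist libraries. The granule protease ELANE had 660.5, 705 and 731 CPM with IgG and 681, 638 and 667 CPM with the antagonist. These 3 genes did not pass the test (adjusted p = 0.869, 0.571 and 0.325), nor did CEBPA, CD4, ITGB2, AZU1 and CLEC12A, all of them well expressed. Of 25 identity markers tested, however, 7 fell and 1 rose. CTSG, LYZ, TYROBP, FCER1G, FCGR2A, PTPRC and the fusion partner PICALM fell, and ITGAX rose. The calls of FCGR2A, PTPRC and PICALM were lost in some fits without 1 library and with library totals, that of PICALM in 11 of 14 alternative fits. That of FCER1G was lost with library totals and in a fit with transcript length and GC trends removed. CD14 and HLA-DRA lay under the filter, CD14 with 22 counts summed over IgG and 13 over antagonist libraries and HLA-DRA with 2 and 1. Markers of T and NK cells were close to 0: 7 of them summed to between 0 and 19 counts per library, with CD3G, NCR1 and KLRD1 at 0 throughout. The 5 erythroid markers summed to 65 to 70 counts with IgG and 46 to 54 with the antagonist (HBB at 0), and 8 epithelial and fibroblast markers to 53 to 68 and 48 to 88 (EPCAM and KRT5 at 0). B cell markers were detected, 3 of 4 passing the filter at up to 18.7 CPM and summing to between 286 and 325 counts, with MS4A1 at 0. In a wider list of genes named for lymphoid cells 20 were tested, 4 rose and 1 fell, and summed levels overlapped, at 1233, 1306 and 1405 CPM with IgG and 1316, 1261 and 1309.9 CPM with the antagonist. CD5, a receptor of T and some B cells, rose from 0.645, 0.890 and 1.35 CPM to 2.91, 2.76 and 3.80 CPM (1.73 ± 0.28, adjusted p = 0.000796), and its relative CD6 from 0.860, 1.25 and 1.04 CPM to 2.23, 1.38 and 2.92 CPM (1.05 ± 0.31, adjusted p = 0.0204). The CD6 call was lost without antagonist library 1 (adjusted p = 0.0696) and without antagonist library 3 (adjusted p = 0.117, both edgeR). The part of other cell types in the results was not tested. IgG library 1 stood apart from its group. Chi-square over degrees of freedom was 10.4 between IgG libraries 1 and 2 and 18.5 between 1 and 3, but 4.32 between 2 and 3 and 1.92 to 4.28 between antagonist libraries.

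Of the 13778 genes, 4978 (36.1%) passed an adjusted p of 0.05 in edgeR's quasi-likelihood test, 2147 (15.6%) higher and 2831 (20.5%) lower with the antagonist, and the groups did not overlap for 49.0%. These shares are the background for every list below. Changes are given as log2 fold changes of antagonist over IgG with their standard errors, and levels as CPM, counts scaled to library size, after TMM scaling for composition. The 2 directions had different shapes. Among genes outside the set-aside lists, 561 rose and 76 fell by more than 1.5-fold, and 100 rose and 9 fell by more than 2-fold. With library totals in place of TMM, 3022 genes were higher and 1597 lower, so the share of higher calls went from 43.1% to 65.4% while the median of all genes moved by 0.08. The count of calls was 3143 without antagonist library 1 and 3190 without antagonist library 3. Against a change of 1.2-fold, tested with glmTreat, 751 genes passed (5.45%).

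Transcript length moved with the calls and is given first. Among genes in the shortest quintile by longest transcript, 7.21% were higher and 37.3% lower, and in the longest quintile 27.6% were higher and 8.9% lower. The shortest quintile took 19.6% to 21.2% of the counts of tested genes with IgG and 17.3% to 17.5% with the antagonist, and the longest quintile 17.7% to 18.2% against 20.9% to 21.1%. The groups did not overlap in either share. Median log2 fold change also ran with transcript GC content, from -0.14 in the lowest quintile to 0.13 in the highest. A fit with offsets that remove both trends is therefore given beside the values it moves by more than 1.5 times, as the value "without the trends". Level moved with the calls too: in the lowest quintile by mean CPM the median was 0.19, with 9.03% higher and 1.85% lower, and in the highest it was -0.07, with 37.1% lower. The share higher in the highest quintile was also above that in the lowest and above the 15.6% among all genes. Both directions were thus called more often in the highest quintile than in the lowest. The part of length, GC and level in the results was not tested further.

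**Figure D1:**
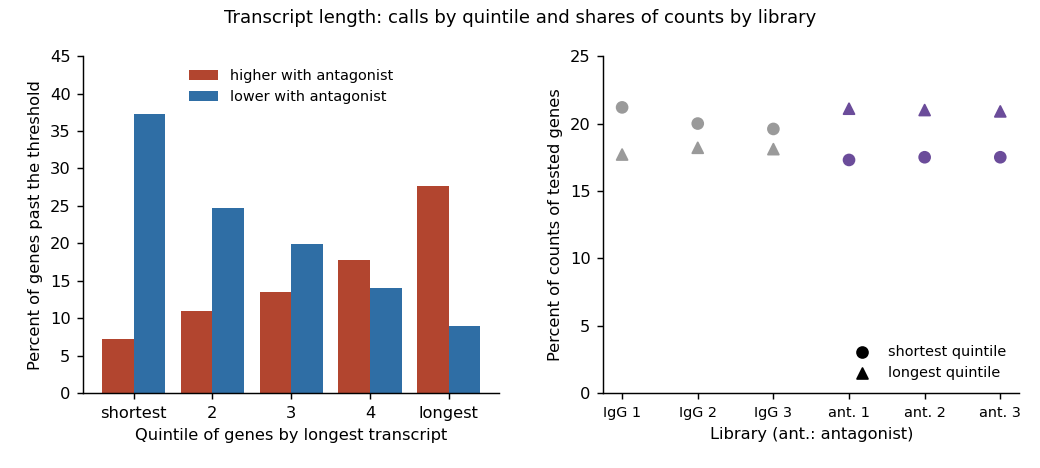
Left, percent of genes past the threshold, higher or lower with the antagonist, in each quintile of genes by longest transcript. Right, percent of each library's counts taken by the shortest and longest quintiles: the shortest quintile is at 19.6% to 21.2% in IgG and 17.3% to 17.5% in antagonist libraries, and the longest quintile lies above it only in the antagonist libraries.

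Enzymes that write and read chromatin marks were among the genes with the largest rises. KMT2D, a histone H3 lysine 4 (H3K4) methyltransferase of enhancers (chromosome 12, 49018978 to 49060794, GRCh38.p14), had 186, 221 and 213 CPM in the IgG libraries and 483, 442 and 487 CPM in the antagonist libraries. The lowest antagonist library lay far above the highest IgG library. The log2 fold change was 1.19 ± 0.07 (0.71 without the trends), with an adjusted p of 1.04e-05. KMT2B, a related H3K4 methyltransferase that acts at promoters, had 159, 199 and 199.8 CPM in the IgG libraries and 316, 292 and 303 CPM in the antagonist libraries, again without overlap (0.71 ± 0.08, or 0.35 without the trends, adjusted p = 0.000196). Of 21 tested members of the H3K4 methyltransferase complexes, 9 rose and 5 fell. Those that rose were the catalytic subunits KMT2A, KMT2B, KMT2C, KMT2D, SETD1A and SETD1B, the related KMT2E, the scaffold HCFC1 and the coactivator NCOA6 (0.50 ± 0.06, or 0.32 without the trends). Those that fell were small shared subunits and partners: DPY30 (-0.47 ± 0.09, or -0.20 without the trends), PAGR1 (-0.26 ± 0.06), PSIP1 (-0.30 ± 0.06, or -0.19 without the trends), ASH2L and WDR82. The members higher had a median longest transcript of 8869 bases and those lower of 3090 bases. In the H3K4 list the count of members lower was 3 with library totals or without antagonist library 1 or 3.

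Of 119 other histone modifiers and remodellers, 47 rose and 9 fell, against background shares of 15.6% and 20.5%, with a median of 0.14. EP400, the ATPase of a histone acetyltransferase complex, had 88.1, 101 and 106 CPM in the IgG libraries and 168, 168 and 168 CPM in the antagonist libraries, a change of 0.77 ± 0.07 (0.43 without the trends). Its relative SRCAP, which deposits a variant of histone H2A, rose by 0.77 ± 0.08 (0.41 without the trends), from 128, 151 and 162 CPM to 249, 248 and 252 CPM. TET3, which oxidises methylated cytosine, rose by 0.66 ± 0.06 (0.37 without the trends). In each of these 3 genes the lowest antagonist library lay above the highest IgG library. The smaller subunits HDAC2, a histone deacetylase (-0.39 ± 0.07), RNF2, a ubiquitin ligase of Polycomb complexes (-0.46 ± 0.09), and MBD2, a reader of methylated DNA (-0.39 ± 0.07), fell. In the histone modifier list the count of members higher was 28 without the trends, and that of members lower was 3 with library totals or without antagonist library 3, 27 without the trends, 4 without IgG library 2 and 5 without antagonist library 1, and its median was 0.22 with library totals and -0.01 without the trends.

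Promoter sequence is shown for the H3K4 methyltransferases KMT2D and KMT2B, which rose, and for the proteasome genes PSMA2 and PSMB3, which fell, to set members of opposite direction side by side. The 200 bases run from 250 to 51 bases before the RefSeq start (GRCh38.p14), 5′ to 3′ on the gene's strand: KMT2D at chr12:49060845-49061044 (minus strand), KMT2B at chr19:35717753-35717952 (plus), PSMA2 at chr7:42932225-42932424 (minus) and PSMB3 at chr17:38752491-38752690 (plus). Capitals mark CCAAT boxes (CCAAT), GC boxes (GGGCGG) and the ETS core (CCGGAAG), each searched on both strands.
KMT2D: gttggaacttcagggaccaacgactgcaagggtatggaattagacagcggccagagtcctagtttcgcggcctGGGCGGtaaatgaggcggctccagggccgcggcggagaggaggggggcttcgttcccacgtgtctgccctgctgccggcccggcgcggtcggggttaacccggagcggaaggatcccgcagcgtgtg
KMT2B: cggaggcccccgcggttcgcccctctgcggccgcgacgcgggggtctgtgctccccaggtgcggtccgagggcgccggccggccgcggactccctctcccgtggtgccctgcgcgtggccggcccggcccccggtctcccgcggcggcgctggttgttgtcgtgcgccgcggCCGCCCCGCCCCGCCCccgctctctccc
PSMA2: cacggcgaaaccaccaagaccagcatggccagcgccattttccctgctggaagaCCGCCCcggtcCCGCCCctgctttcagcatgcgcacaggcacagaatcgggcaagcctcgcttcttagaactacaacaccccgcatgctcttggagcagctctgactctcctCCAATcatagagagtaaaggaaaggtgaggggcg
PSMB3: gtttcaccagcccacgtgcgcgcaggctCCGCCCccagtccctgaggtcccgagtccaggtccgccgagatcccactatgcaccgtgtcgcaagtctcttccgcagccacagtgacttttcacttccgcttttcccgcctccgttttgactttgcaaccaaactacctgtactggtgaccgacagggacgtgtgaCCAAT
KMT2D and KMT2B hold GC boxes only in these windows (1 and 3, overlapping in KMT2B), while PSMA2 and PSMB3 each hold a CCAAT box as well. Over the 250 bases before the start, a CCAAT box was present in 34.8% of 10555 promoters of tested genes, in 31.3% of those of higher genes and in 36.8% of those of lower genes. The ETS core was present in 15.7%, 13.3% and 20.8%, and the GC box in 66.0%, 66.2% and 67.5%. Among lower members, the CCAAT box was in 47.1% of 34 proteasome, 35.5% of 31 mitochondrial import, 30.3% of 33 chaperone and 5 of 25 oxidant list promoters, and the ETS core in 20.6%, 41.9%, 24.2% and 2 of 25. The 4 lists lay on both sides of the shares among all promoters for each motif. These matches are descriptions of sequence and not of binding.

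The proteasome degrades proteins tagged with ubiquitin, and most of its genes fell. Of 50 tested genes 39 fell and 0 rose, with a median of -0.33 (-0.21 without the trends, 42 lower) and 33 lower with library totals. The core subunit PSMB3 had 79.9, 72.1 and 64.9 CPM in the IgG libraries and 48.05, 47.8 and 48.8 CPM in the antagonist libraries, so that the groups did not overlap (-0.59 ± 0.08, adjusted p = 0.000299). PSMA2, a subunit of the outer ring, had 119.8 ± 8.45 to 85.2 ± 2.83 CPM (means ± SD of 3 libraries each, as for later values of this form; -0.49 ± 0.07, or -0.22 without the trends), and the catalytic-ring subunit PSMB4 changed by -0.36 ± 0.06. The sum over the list was 4837, 4596 and 4567 CPM in the IgG libraries and 3767, 3846 and 3763 CPM in the antagonist libraries. No antagonist library reached the lowest IgG library.

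Other parts of the ubiquitin system changed in both directions. Of 46 ligases and ligase subunits of the HECT and cullin classes 11 rose (23.9%) and 10 fell (21.7%), the latter close to the background. The giant ligases HECTD4 (64.7, 82.8 and 83.3 CPM in the IgG libraries and 137, 138 and 143 CPM in the antagonist libraries; 0.86 ± 0.09, or 0.50 without the trends), HERC1 (0.49 ± 0.05, or 0.23 without the trends) and RNF213 (0.53 ± 0.06, or 0.12 without the trends) rose, and the inhibitor of apoptosis and ligase BIRC6 rose by 0.35 ± 0.06 (0.14 without the trends). The small adaptors ELOB (-0.50 ± 0.07) and SKP1 (-0.37 ± 0.08) and the scaffold CUL2 (-0.41 ± 0.08) fell. Members higher had a median longest transcript of 15137 bases and members lower of 3634 bases. In the ubiquitin ligase list the count of members higher was 7 without the trends, and that of members lower was 6 with library totals or without IgG library 2 or antagonist library 1 and 5 without antagonist library 3, and its median was -0.06 without the trends. Without the trends, 7 were higher and 13 lower. Among 34 ubiquitin-conjugating enzymes 16 fell and 4 rose. UBE2S, which extends ubiquitin chains in mitosis, changed by -0.52 ± 0.06, UBE2N, which builds non-degradative chains, by -0.49 ± 0.08, and UBE2L3, a partner of many ligases, by -0.44 ± 0.07, while the variant enzyme UBE2V1, which can share reads with a read-through gene, rose by 1.15 ± 0.19 from 3.44, 2.79 and 2.63 CPM to 5.08, 7.11 and 7.55 CPM. In the conjugating enzyme list the count of members lower was 10 without antagonist library 1.

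**Figure D2:**
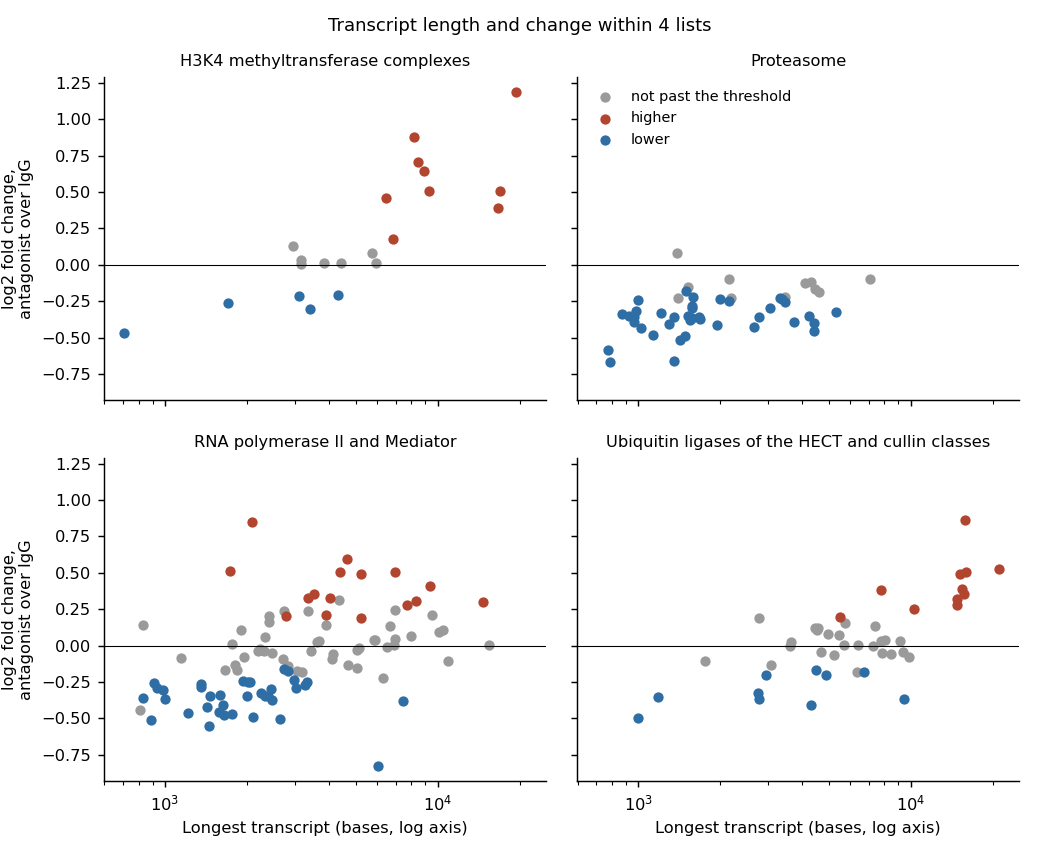
Each point is a tested member of 1 of 4 lists, by its longest transcript (bases, log axis) and its log2 fold change of antagonist over IgG. KMT2D is the highest point of the H3K4 panel at 1.19, proteasome genes past the threshold all lie below 0, and in the ligase panel the 9 genes with the longest transcripts lie above 0.

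Molecular chaperones were lower as well. Of 50 tested, 36 fell and 0 rose (median -0.32, with 29 lower with library totals and 36 without the trends). HSPA8, the constitutive Hsp70, had 424, 399.8 and 424 CPM in the IgG libraries and 272, 301 and 294 CPM in the antagonist libraries. Its Hsp40 partner DNAJA1 had 64.96, 62.1 and 60.8 CPM with IgG and 44.3, 43.2 and 40.4 CPM with the antagonist. Neither gene's groups overlapped (-0.52 ± 0.06, adjusted p = 0.000194, and -0.55 ± 0.07, adjusted p = 0.000204). The cytosolic Hsp90 genes HSP90AA1 (-0.46 ± 0.06) and HSP90AB1 (-0.27 ± 0.06) fell too. The 8 subunits of the cytosolic chaperonin (TCP1, CCT2, CCT3, CCT4, CCT5, CCT6A, CCT7 and CCT8) fell, as did the 6 prefoldin subunits; the tissue-restricted CCT6B did not pass.

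Genes of the NADPH oxidase, which makes oxidants, and of the defence against oxidants were listed together, and 33 of 44 tested fell and 0 rose (median -0.30, -0.24 without the trends, with 23 lower and 1 higher with library totals). The oxidase and its regulators made up 10 of them, of which 3 fell (CYBA, RAC1 and RAP1A), and the other 34 were defence genes, of which 30 fell. The peroxiredoxin PRDX5, which removes peroxides, had 315, 290.2 and 289.6 CPM in the IgG libraries and 214, 225 and 219 CPM in the antagonist libraries (-0.44 ± 0.06, adjusted p = 0.000304). SOD1, the cytosolic superoxide dismutase, had 179, 163 and 166 CPM in the IgG libraries and 120.3, 131 and 121 CPM in the antagonist libraries (-0.45 ± 0.06, or -0.25 without the trends, adjusted p = 0.000375). GSTP1, a glutathione transferase, went from 888 ± 17.2 to 672 ± 8.36 CPM (-0.40 ± 0.05). The groups were separate in all 3. Those that fell included all 6 peroxiredoxins, the thioredoxins TXN and TXN2 with the reductase TXNRD1, the glutathione enzymes GCLM, GSS and GSR, catalase (CAT), and the regulators NFE2L2 and KEAP1. The summed level was 7313, 7208 and 7278 CPM with IgG and 5866, 5888 and 5907 CPM with the antagonist.

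Genes listed as granule proteases and defence proteins followed the same direction where they were called. Of these 26 genes 16 fell and 0 rose (median -0.32, -0.23 without the trends). By glmTreat at 1.2-fold 3 were lower. CTSG, the protease cathepsin G and 1 of the 10 most abundant called genes outside the set-aside lists, had 3305, 3309 and 3372 CPM in the IgG libraries and 2545, 2604 and 2669 CPM in the antagonist libraries (-0.35 ± 0.05, adjusted p = 0.000507). Lysozyme, LYZ, had 227, 192 and 194 CPM in the IgG libraries and 139, 163 and 144 CPM in the antagonist libraries (-0.46 ± 0.08, or -0.21 without the trends, adjusted p = 0.00119). The antimicrobial ribonucleases RNASE2 (-0.48 ± 0.07, or -0.28 without the trends) and RNASE3 (-0.56 ± 0.08), the calcium-binding S100A4 (-0.54 ± 0.07) and the cytotoxic granule protein NKG7 (-0.32 ± 0.06) also fell. In all of these, each antagonist library lay below each IgG library. ELANE, AZU1, PRTN3 and MPO, which are stored in the same granules as CTSG, did not pass the test (adjusted p = 0.325, 0.939, 0.0886 and 0.267). The log2 fold change of MPO was above 0 and the highest of the list. Without the trends ELANE did pass (log2 fold change -0.14, adjusted p = 0.00796).

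**Figure D3:**
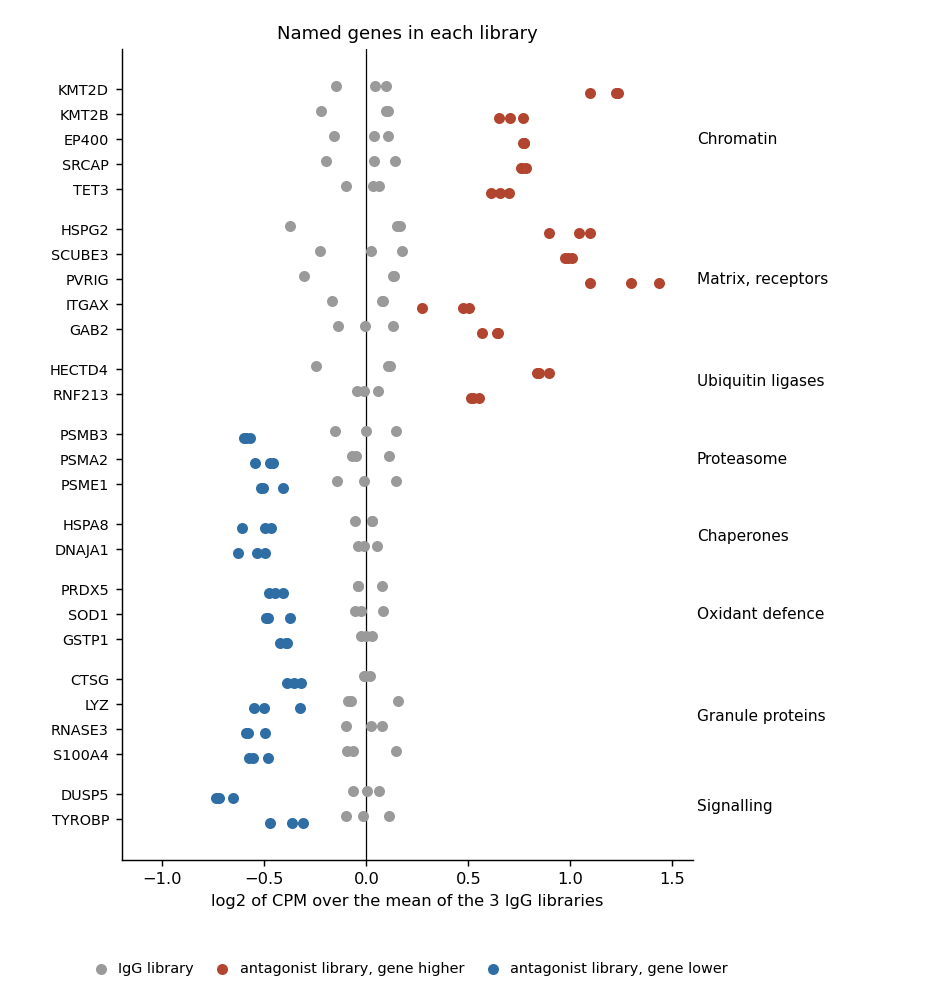
log2 of CPM over the mean of the 3 IgG libraries for 26 named genes, 1 point per library. IgG libraries are grey, and antagonist libraries are red where the gene is higher and blue where it is lower. In each gene shown the 3 antagonist libraries lie beyond all 3 IgG libraries.

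Genes for making and importing proteins were lower outside the ribosome itself. Of 56 translation factors 39 fell (median -0.29), and 31 were lower with library totals. EEF1A1, which brings aminoacyl tRNA to the ribosome and is among the most abundant messages, had 3664, 3437 and 3532 CPM in the IgG libraries and 2571, 2753 and 2519 CPM in the antagonist libraries (-0.44 ± 0.06, adjusted p = 0.000293). Processed copies of this gene elsewhere in the genome can share its reads. Its exchange factor EEF1B2 changed by -0.55 ± 0.06 and the subunit-joining factor EIF5B by -0.48 ± 0.06. Of 40 tRNA synthetases and partners 18 fell and 0 rose, among them TARS1 (-0.38 ± 0.06) and KARS1 (-0.32 ± 0.06). In the tRNA synthetase list the count of members lower was 8 with library totals, 11 without IgG library 2 or antagonist library 3 and 10 without antagonist library 1. In the list of mitochondrial import and dynamics 37 of 55 genes fell (median -0.30), 25 with library totals and 38 without the trends. CHCHD2, a protein of the intermembrane space, had 299.9, 277 and 262 CPM in the IgG libraries and 193, 196 and 204 CPM in the antagonist libraries (-0.50 ± 0.06). CHCHD3, which shapes the cristae, changed by -0.51 ± 0.07, and the prohibitin PHB by -0.41 ± 0.05.

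The secretory pathway changed in both directions, mostly downward. Of 61 genes for secretion and Golgi traffic 37 fell and 7 rose. SRP9, a signal recognition particle subunit, changed by -0.47 ± 0.07 (-0.16 without the trends), the signal peptidase subunit SPCS1 by -0.46 ± 0.07, and SEC62, a helper of the translocon, by -0.46 ± 0.07. The 7 that rose were SEC24C, GBF1, ARFGEF2, GOLGA2 and 3 others, with SEC16A, which organises ER exit sites, at 0.52 ± 0.06 (0.22 without the trends) and the golgins GOLGA3 at 0.57 ± 0.06 (0.29 without the trends) and GOLGA1 at 0.42 ± 0.08. In the secretion list the count of members higher was 4 without antagonist library 3, and that of members lower was 18 with library totals, 19 without antagonist library 1 and 17 without antagonist library 3. In the list of N-glycosylation and GPI anchors 23 of 52 fell and 4 rose. The oligosaccharyltransferase subunits RPN1 (-0.35 ± 0.05), RPN2 (-0.32 ± 0.05) and DAD1 (-0.44 ± 0.07, or -0.29 without the trends) fell, while PIGG, which modifies GPI anchors, rose by 0.49 ± 0.06 from 56.2, 55.6 and 56.2 CPM to 77.9, 77.9 and 80.4 CPM. In the glycosylation list the count of members lower was 11 with library totals, 13 without IgG library 2 and 12 without antagonist library 1 or 3.

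Genes of ER folding and the unfolded protein response changed in both directions. Of 45 tested, 18 fell and 5 rose. ERN1, the kinase and ribonuclease that senses unfolded protein in the ER, had 24.3, 30.4 and 27.5 CPM in the IgG libraries and 45.5, 42.96 and 46.00 CPM in the antagonist libraries and did not overlap between groups (0.71 ± 0.09, adjusted p = 0.000213). XBP1, the message that ERN1 splices, went the other way, from 222 ± 12.7 to 171 ± 2.999 CPM (-0.38 ± 0.06), and so did DNAJB9 (-0.60 ± 0.10) and SDF2L1 (-0.39 ± 0.06), both ER co-chaperones. In the ER folding list the count of members higher was 1 without antagonist library 1 and 3 without antagonist library 2. Spliced and unspliced XBP1 cannot be told apart in gene counts.

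Genes that transcribe and process RNA moved in both directions. Of 99 genes for RNA polymerase II, general factors, Mediator and Integrator, 16 rose and 36 fell. The largest polymerase subunit, POLR2A, had 13.01, 14.8 and 14.9 CPM in the IgG libraries and 25.5, 27.5 and 23.7 CPM in the antagonist libraries (0.85 ± 0.09, adjusted p = 0.000159), MED12 of the Mediator kinase module rose by 0.51 ± 0.06 (0.28 without the trends) and the Integrator subunit INTS3 by 0.49 ± 0.06. The small polymerase subunit POLR2F (-0.49 ± 0.08), the TFIID subunit TAF10 (-0.47 ± 0.08) and the TFIIA subunit GTF2A2 (-0.45 ± 0.08, or -0.18 without the trends) fell. In the polymerase II and Mediator list the count of members higher was 10 without antagonist library 3, and that of members lower was 17 with library totals, 23 without IgG library 2, 20 without antagonist library 1 and 15 without antagonist library 3. With library totals, 22 were higher and 17 lower. In the core spliceosome 29 of 62 genes fell and 3 rose, with the Sm protein SNRPB at -0.37 ± 0.06 and the U2 component SF3B5 at -0.35 ± 0.06. In the spliceosome list the count of members higher was 7 with library totals or without the trends and 6 without IgG library 1, and that of members lower was 19 with library totals. Among 66 SR proteins and splicing regulators 18 rose and 12 fell: SRRM2, a scaffold of nuclear speckles, went from 791 ± 59.6 to 1322 ± 19.4 CPM (0.74 ± 0.06, or 0.44 without the trends), SRRM1 and RBM5 rose by 0.47 ± 0.06 and 0.56 ± 0.06, and the hnRNP proteins HNRNPC (-0.33 ± 0.07) and HNRNPM (-0.35 ± 0.05) and the factor SRSF3 (-0.31 ± 0.06) fell. In the splicing regulator list the count of members lower was 23 without the trends, and its median was -0.02 without the trends. Without the trends, 22 were higher and 23 lower.

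Small RNA silencing and mRNA decay genes were called higher more than lower. Of 72 tested, 22 rose and 9 fell. AGO2, the slicing Argonaute, had 111, 116 and 109.9 CPM in the IgG libraries and 164, 171 and 163 CPM in the antagonist libraries (0.56 ± 0.06, or 0.31 without the trends, adjusted p = 0.000105), and all 4 Argonaute genes and all 3 TNRC6 genes, their partners in silencing, were among those higher. The deadenylase PAN2 rose by 0.55 ± 0.06 and the nonsense-mediated decay factor SMG5 by 0.52 ± 0.05 (0.33 without the trends), whereas the exosome subunit EXOSC4 (-0.48 ± 0.09), the deadenylase CNOT8 (-0.38 ± 0.06) and the nuclear exonuclease XRN2 (-0.27 ± 0.06) fell. Their median longest transcripts were 6999 and 2708 bases. In the mRNA decay list the count of members lower was 14 without the trends and 5 without antagonist library 3, and its median was 0.00 without the trends. In the nuclear pore and transport list 18 of 65 fell and 5 rose, with the pore anchors POM121 and POM121C at 0.45 ± 0.06 (0.19 without the trends) and 0.51 ± 0.08 (0.29 without the trends), the importin KPNA2 at -0.37 ± 0.06 and the mRNA export factors ALYREF and NXT1 at -0.40 ± 0.06 and -0.46 ± 0.06. POM121 and POM121C are near copies that can share reads. In the nuclear pore list the count of members higher was 9 with library totals and 3 without the trends or without antagonist library 1 or 3, and that of members lower was 11 with library totals or without antagonist library 1 and 32 without the trends.

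**Figure D4:**
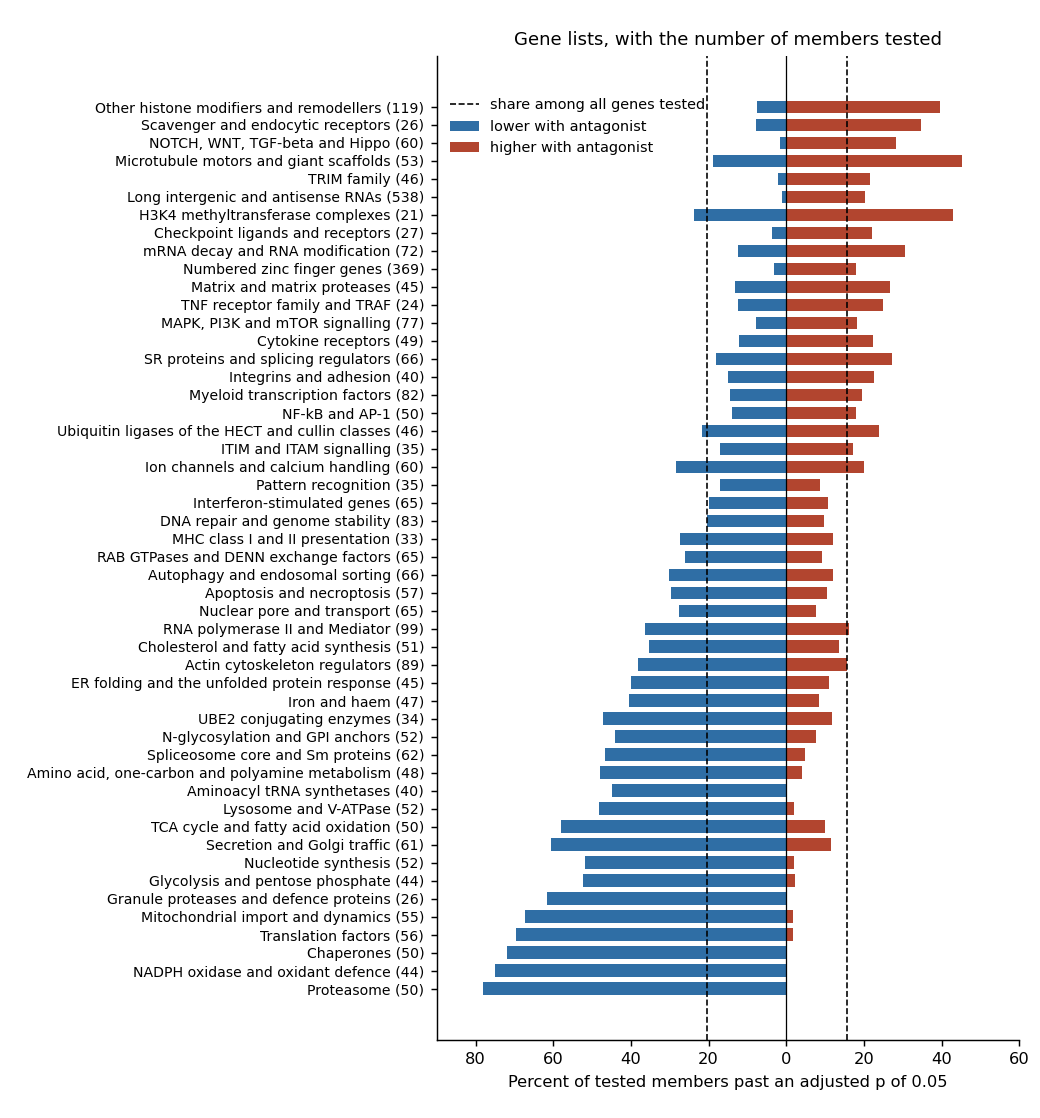
Percent of tested members lower (left, blue) and higher (right, red) with the antagonist in 50 gene lists, sorted by the difference, with the number tested in brackets. Dashed lines mark the shares among all genes, 20.5% lower and 15.6% higher; the proteasome is at the bottom and the histone modifiers are at the top.

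Receptors and signalling genes near LILRB3 changed in small numbers. Of 20 tested genes of the LILR family and other paired receptors 1 rose and 0 fell, the riser being CD300LF, a myeloid receptor with ITIMs (0.19 ± 0.07, adjusted p = 0.0398). It did not pass without IgG library 2 or antagonist library 1 or 3 (adjusted p = 0.0588, 0.184 and 0.111) or with no filter (0.0528). This receptor list held 3 members higher and 2 lower without the trends, with a median of -0.02 in place of 0.06. It held 2 higher and 1 lower without IgG library 1, and 0 higher and 1 lower with no filter. In the list of ITIM and ITAM signalling 6 of 35 rose (17.1%) and 6 fell (17.1%), shares near the background. GAB2, a docking adaptor that recruits PI3K and SHP2, had 56.9, 62.6 and 68.8 CPM in the IgG libraries and 93.1, 98.1 and 97.9 CPM in the antagonist libraries (0.62 ± 0.07, adjusted p = 0.0002). The lipid phosphatase INPPL1 rose by 0.39 ± 0.08 (0.15 without the trends) and the ubiquitin ligase CBL, which removes active receptors, by 0.41 ± 0.06 (0.22 without the trends). TYROBP, the ITAM adaptor of activating myeloid receptors, had 54.5, 47.03 and 49.8 CPM in the IgG libraries and 39.2, 36.3 and 40.7 CPM in the antagonist libraries (-0.38 ± 0.08, adjusted p = 0.00245). None of these 4 genes overlapped between groups. In the ITIM and ITAM list the count of members higher was 10 with library totals, and that of members lower was 1 with library totals, 13 without the trends and 3 without IgG library 2 or antagonist library 1 or 3, and its median was 0.04 with library totals. Genes for the Siglec SIGLEC6 (0.28 ± 0.07) and the complement protein properdin, CFP (-0.35 ± 0.07), moved in opposite directions, and the galectins LGALS1 (-0.51 ± 0.06) and LGALS9 (-0.25 ± 0.06) fell.

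Immune checkpoint genes changed in small numbers, with 6 of 27 higher and 1 lower, against 15.6% and 20.5%. PVRIG, an inhibitory receptor for nectin family ligands (chromosome 7, 100219248 to 100221490, GRCh38.p14), had 4.14, 4.15 and 3.06 CPM in the IgG libraries and 9.31, 8.11 and 10.2 CPM in the antagonist libraries. The groups did not overlap, at a low level (1.28 ± 0.16, adjusted p = 0.000245). PVR, a ligand of related receptors, rose by 0.33 ± 0.07 (0.21 without the trends) and the butyrophilin BTN3A1 by 0.35 ± 0.07. In the TNF receptor family and its TRAF adaptors 6 of 24 rose and 3 fell: TNFRSF14, the receptor for LIGHT, had 129, 155 and 165 CPM in the IgG libraries and 213, 192 and 215 CPM in the antagonist libraries (0.46 ± 0.09), the adaptor TRAF1 rose by 0.76 ± 0.18, and the death domain proteins TNFRSF1A (-0.28 ± 0.06) and FADD (-0.43 ± 0.09) fell. In the TNF receptor list the count of members higher was 2 without antagonist library 1 and 3 without antagonist library 2 or 3, and that of members lower was 6 without the trends, and its median was -0.04 without the trends.

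Cytokine receptors and their signalling proteins were higher in 11 of 49 (22.4%) and lower in 6 (12.2%). The chain IL2RB had 10.3, 12.4 and 12.4 CPM in the IgG libraries and 15.7, 15.1 and 15.9 CPM in the antagonist libraries (0.41 ± 0.10, or 0.24 without the trends), and STAT2, which carries type I interferon signals, rose by 0.30 ± 0.06. The interferon receptor chain IFNAR1 changed by -0.40 ± 0.09 (-0.26 without IgG library 1) and the interleukin 13 receptor chain IL13RA1 by -0.43 ± 0.08. In the cytokine receptor list the count of members higher was 7 without the trends or without antagonist library 3, and that of members lower was 3 with library totals, and its median was -0.04 without the trends. Without the trends, 7 were higher and 9 lower. Among secreted factors, the angiogenic VEGFA rose by 0.32 ± 0.06, while the chemokine CCL5 (-0.39 ± 0.07), the cytokine IL32 (-0.33 ± 0.06) and the B cell survival factor TNFSF13B (-0.42 ± 0.07, or -0.19 without the trends) fell. Of 36 receptors listed for chemokines, lipids and related ligands 5 rose (13.9%) and 5 fell (13.9%), with a median of -0.14. Members lower were 1 with library totals and 8 without the trends. The receptors for lysophosphatidic acid LPAR2 (0.44 ± 0.11) and for extracellular nucleotides P2RY2 (0.38 ± 0.07) and P2RX1 (0.33 ± 0.06) rose. S1PR4, GPR183 and CXCR4 fell, and each of these calls was lost in at least 1 fit without 1 library. In innate sensing, the adaptor of cytosolic RNA sensors MAVS rose by 0.47 ± 0.06 (0.18 without the trends) and the inflammasome adaptor PYCARD changed by -0.47 ± 0.06, from 87.4, 86.3 and 85.2 CPM to 61.3, 60.1 and 65.9 CPM.

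Interferon and antigen presentation genes, relevant because all cells had received interferon gamma, did not move one way. Of 65 interferon-stimulated genes 7 rose and 13 fell, the latter close to the 20.5% among all genes. IFI6 (-0.49 ± 0.07), the lysosomal reductase IFI30 (-0.35 ± 0.06) and the proteasome activator subunit PSME1 (-0.48 ± 0.08) fell, and TRIM25, a ligase that promotes RNA sensing, rose by 0.28 ± 0.06 (0.13 without the trends). In the interferon list the count of members lower was 8 with library totals and 6 without antagonist library 1. With library totals, 9 were higher and 8 lower. Of 33 antigen presentation genes 4 rose (12.1%) and 9 fell (27.3%). The class II transactivator CIITA had 8.77, 8.18 and 9.43 CPM in the IgG libraries and 12.7, 12.9 and 15.9 CPM in the antagonist libraries (0.66 ± 0.12, or 0.29 without the trends, adjusted p = 0.00168), and its class I counterpart NLRC5 rose by 0.48 ± 0.07 (0.21 without the trends). The class I light chain B2M changed by -0.35 ± 0.06 (-0.09 without the trends), and HLA-DRA, a target of CIITA, stayed under the filter. In the antigen presentation list the count of members lower was 5 with library totals or without antagonist library 1 or 3, and its median was 0.00 with library totals. In the TRIM family 10 of 46 rose and 1 fell, with TRIM66 at 0.79 ± 0.09 and TRIM56 at 0.66 ± 0.10 (0.37 without the trends). In the TRIM list the count of members lower was 5 without the trends.

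Matrix and adhesion genes held some of the largest rises. HSPG2, which encodes the basement membrane proteoglycan perlecan (chromosome 1, 21822244 to 21937310, GRCh38.p14), had 358, 515 and 520.0 CPM in the IgG libraries and 992, 864 and 956 CPM in the antagonist libraries. The IgG libraries spread widely, but the lowest antagonist library was still well above the highest of them (1.01 ± 0.14, or 0.56 without the trends, adjusted p = 0.00153). Of 45 matrix genes and matrix proteases 12 rose and 6 fell (median 0.21). The procollagen protease ADAMTS14 rose by 0.75 ± 0.09 (0.50 without the trends) and the sheddase ADAM8 by 0.71 ± 0.12, while the granule proteoglycan SRGN (-0.48 ± 0.08, or -0.16 without the trends), the protease inhibitor SERPINE2 (-0.36 ± 0.06) and TIMP1, an inhibitor of matrix metalloproteases (-0.30 ± 0.06), fell. In the matrix list the count of members higher was 20 with library totals and 7 without antagonist library 1 or 3, and that of members lower was 10 without the trends, and its median was 0.05 without the trends and 0.38 without IgG library 3. Without the trends, 8 were higher and 10 lower. SCUBE3, a secreted and membrane-bound glycoprotein outside that list, had 9.89, 10.97 and 8.33 CPM in the IgG libraries and 19.6, 19.1 and 19.3 CPM in the antagonist libraries (0.99 ± 0.11). In the integrin and adhesion list 9 of 40 rose and 6 fell. ITGAX, the alpha chain of complement receptor 4 and a marker of differentiated myeloid cells, had 48.2, 57.3 and 57.1 CPM in the IgG libraries and 75.4, 65.5 and 76.7 CPM in the antagonist libraries, with the lowest antagonist library above the highest IgG library (0.42 ± 0.08, or 0.24 without the trends, adjusted p = 0.00251). The adhesion kinase PTK2B rose by 0.38 ± 0.06 (0.20 without the trends), and CD99 (-0.28 ± 0.05) and the integrin-linked kinase ILK (-0.27 ± 0.05) fell. In the integrin list the count of members higher was 4 without antagonist library 3, and that of members lower was 2 with library totals, 17 without the trends and 3 without IgG library 2 or antagonist library 1, and its median was -0.14 without the trends. Without the trends, 6 were higher and 17 lower.

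Developmental pathway and scavenger receptor genes were called higher more than lower, which for scavenger receptors turned without the trends. Of 60 NOTCH, WNT, TGF-beta and Hippo genes 17 rose and 1 fell. The receptor NOTCH2 had 231, 251 and 235 CPM in the IgG libraries and 324, 329 and 323 CPM in the antagonist libraries (0.44 ± 0.06, or 0.20 without the trends), the TGF-beta effector SMAD3 rose by 0.47 ± 0.06 and the WNT coactivator BCL9L by 0.74 ± 0.08 (0.35 without the trends). In the NOTCH and WNT list the count of members higher was 9 without the trends, and that of members lower was 6 without the trends, and its median was -0.01 without the trends. Of 26 scavenger and endocytic receptors and their ligands 9 rose and 2 fell, with GAS6, a bridging ligand for dying cells, at 6.24, 5.81 and 5.51 CPM with IgG and 12.3, 9.54 and 11.6 CPM with the antagonist (0.93 ± 0.13) and the lipoprotein receptor LRP8 at 0.30 ± 0.06 (0.15 without the trends). In the scavenger receptor list the count of members higher was 4 without the trends or without antagonist library 3 and 5 without IgG library 2 or antagonist library 1, and that of members lower was 7 without the trends, and its median was -0.04 without the trends. Without the trends, 4 were higher and 7 lower.

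Transcription factors were called in both directions, and the shares are set here beside the background of 15.6% higher and 20.5% lower. Of 82 myeloid and related transcription factors 16 rose (19.5%) and 12 fell (14.6%). MNT, a repressor that opposes MYC, rose by 0.55 ± 0.10 (0.31 without the trends), RUNX2 by 0.40 ± 0.05 and the small Maf protein MAFG by 0.41 ± 0.07 (0.21 without the trends), while the erythroid and megakaryocytic factor NFE2 changed by -0.35 ± 0.07. In the transcription factor list the count of members higher was 10 without the trends, 7 without antagonist library 1 and 8 without antagonist library 3, and that of members lower was 3 with library totals or without antagonist library 1, 7 without IgG library 2 or 3 or antagonist library 2 and 4 without antagonist library 3, and its median was -0.02 without the trends. Without the trends, 10 were higher and 17 lower. In the NF-kB and AP-1 list 9 of 50 rose and 7 fell. The subunit REL (0.42 ± 0.08) and the kinase IKBKB (0.33 ± 0.06) rose, and the inhibitor NFKBIE (-0.37 ± 0.07) and the AP-1 partner BATF (-0.29 ± 0.07) fell. DUSP5, a nuclear phosphatase of ERK that is itself induced by ERK, had 8.17, 7.83 and 7.47 CPM in the IgG libraries and 4.97, 4.69 and 4.74 CPM in the antagonist libraries (-0.71 ± 0.13, adjusted p = 0.00158), among the 15 largest falls. In the NF-kB list the count of members higher was 5 without antagonist library 1, and that of members lower was 4 with library totals or without IgG library 2, 11 without the trends and 3 without antagonist library 3, and its median was 0.07 with library totals. Without the trends, 9 were higher and 11 lower. Of 77 genes of MAPK, PI3K and mTOR signalling 14 rose (18.2%) and 6 fell (7.79%), with the p38 kinase MAPK13 at 21.3, 18.9 and 21.5 CPM with IgG and 36.7, 34.8 and 36.1 CPM with the antagonist (0.80 ± 0.08), the kinase PDPK1 at 0.39 ± 0.06 (0.19 without the trends) and the small GTPase NRAS at -0.32 ± 0.07. In the kinase signalling list the count of members higher was 22 with library totals, 8 without the trends and 6 without antagonist library 1 or 3, and that of members lower was 3 with library totals or without antagonist library 3 and 24 without the trends, and its median was -0.05 without the trends. Without the trends, 8 were higher and 24 lower.

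Metabolic genes were called lower more than higher in each of 4 lists. Of 44 glycolysis and pentose phosphate genes 23 fell and 1 rose, of 50 TCA cycle and fatty acid oxidation genes 29 fell and 5 rose, of 48 amino acid, one-carbon and polyamine genes 23 fell and 2 rose, and of 52 nucleotide synthesis genes 27 fell and 1 rose. TPI1 (-0.39 ± 0.06) and TALDO1 (-0.39 ± 0.06) represent glycolysis and the pentose phosphate pathway, ETFB (-0.48 ± 0.06) and SUCLG2 (-0.46 ± 0.07, or -0.28 without the trends) the mitochondrial steps, and ADSL (-0.47 ± 0.06) and NME2 (-0.56 ± 0.08) purine and nucleotide supply. Against this direction MAT2A, which makes S-adenosylmethionine, the methyl donor of histone methyltransferases, had 103, 91.6 and 100.2 CPM in the IgG libraries and 139.6, 151 and 136 CPM in the antagonist libraries (0.53 ± 0.07, adjusted p = 0.000254). In polyamine synthesis AMD1 (-0.42 ± 0.08, or -0.28 without the trends) and the antizyme OAZ1 (-0.40 ± 0.07) fell. In the glycolysis list the count of members lower was 14 with library totals and 15 without IgG library 2. In the TCA cycle list the count of members higher was 3 without IgG library 2 or antagonist library 2 and 2 without antagonist library 3, and that of members lower was 19 with library totals or without antagonist library 1.

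Lipid and iron genes changed in both directions. Of 51 cholesterol and fatty acid genes 18 fell and 7 rose. The sterol enzymes CYP51A1 (-0.38 ± 0.06) and NSDHL (-0.36 ± 0.06) and the thiolase ACAT2 (-0.39 ± 0.06) fell, and the lipid transporters ABCA2 (0.69 ± 0.12, or 0.34 without the trends) and ABCA7 (0.54 ± 0.08, or 0.21 without the trends) and the carboxylase ACACB (0.44 ± 0.06, or 0.16 without the trends) rose. In the lipid synthesis list the count of members higher was 11 with library totals, 3 without antagonist library 1 and 4 without antagonist library 3, and that of members lower was 10 with library totals or without antagonist library 3, 11 without IgG library 2 and 9 without antagonist library 1. With library totals, 11 were higher and 10 lower. Of 47 iron and haem genes 19 fell and 4 rose. Ferritin light chain, FTL, which stores iron, had 5441, 5026 and 4872 CPM in the IgG libraries and 3733, 3831 and 3808 CPM in the antagonist libraries (-0.43 ± 0.06, adjusted p = 0.000304), and the biliverdin reductases BLVRA (-0.49 ± 0.07) and BLVRB (-0.31 ± 0.06) fell. SLC25A37, which brings iron into mitochondria, rose by 0.52 ± 0.06 from 199, 202 and 199.5 CPM to 289, 295 and 278 CPM.

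Genes of the cytoskeleton changed in both directions. Of 89 actin cytoskeleton regulators 34 fell and 14 rose. The capping protein CAPZA2 (-0.55 ± 0.08), the myosin light chain MYL6 (-0.45 ± 0.07) and ACTR3 of the Arp2/3 complex (-0.42 ± 0.06) fell, as did 6 of 7 ARPC genes of that complex (ARPC5L did not pass), and the exchange factors ARHGEF11 (0.63 ± 0.08), DOCK5 (0.40 ± 0.06, or 0.25 without the trends) and DOCK6 (0.47 ± 0.07, or 0.18 without the trends) rose. In the actin list the count of members higher was 23 with library totals, 7 without the trends and 8 without antagonist library 1, and its median was 0.04 with library totals. Among 53 microtubule motors and giant scaffolds 24 rose and 10 fell. SYNE3, a linker of the nuclear envelope, rose by 0.74 ± 0.06 (0.42 without the trends), and the dynein light chains DYNLL1 (-0.49 ± 0.06) and DYNLRB1 (-0.44 ± 0.07) fell. Median longest transcripts of members higher and lower were 14604 and 1762 bases. In the motor and scaffold list the count of members higher was 10 without the trends, and that of members lower was 17 without the trends, and its median was -0.08 without the trends. Without the trends, 10 were higher and 17 lower.

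Endosome, autophagy and lysosome genes changed in both directions, with more lower than higher. Of 66 autophagy and endosomal sorting genes 20 fell and 8 rose, with the conjugating enzyme ATG3 at -0.40 ± 0.06 (-0.26 without the trends), CHMP2A of the ESCRT machinery at -0.42 ± 0.06, and the lipid transfer proteins ATG2B and VPS13D at 0.43 ± 0.08 (0.23 without the trends) and 0.45 ± 0.06 (0.17 without the trends). In the autophagy list the count of members higher was 5 without the trends or without antagonist library 1, 2 or 3, and that of members lower was 13 with library totals. In the lysosome and V-ATPase list 25 of 52 fell and 1 rose, including the proton pump subunits ATP6V0D1 (-0.39 ± 0.06) and ATP6V0E1 (-0.53 ± 0.09, or -0.32 without the trends). In the lysosome list the count of members lower was 13 with library totals, 15 without IgG library 2 or antagonist library 3 and 14 without antagonist library 1. Of 65 RAB GTPases and DENN exchange factors 17 fell (26.2%) and 6 rose (9.23%). The atypical large GTPase RAB44 had 418, 480.0 and 488 CPM in the IgG libraries and 642, 603 and 649.8 CPM in the antagonist libraries (0.45 ± 0.07, or 0.25 without the trends), and DENND4B (0.49 ± 0.07, or 0.22 without the trends) and DENND3 (0.38 ± 0.06, or 0.18 without the trends) rose with it, whereas RAB32 (-0.44 ± 0.06), RAB2A (-0.38 ± 0.06) and RAB10 (-0.29 ± 0.06) fell. In the RAB and DENN list the count of members higher was 10 with library totals, and that of members lower was 8 with library totals, 11 without antagonist library 1 and 9 without antagonist library 3, and its median was 0.01 with library totals. With library totals, 10 were higher and 8 lower.

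Cell death and genome maintenance genes were called in shares set here beside the background of 20.5% lower and 15.6% higher. Of 57 apoptosis and necroptosis genes 17 fell (29.8%) and 6 rose (10.5%), with cytochrome c, CYCS, at -0.43 ± 0.07, the BH3-only protein BID at -0.33 ± 0.06, the p53 inhibitor MDM4 at 0.45 ± 0.06 and the gasdermin GSDMB at 0.65 ± 0.08. In the apoptosis list the count of members higher was 11 with library totals, and that of members lower was 6 with library totals, 10 without IgG library 2 or antagonist library 1, 9 without antagonist library 2 and 7 without antagonist library 3. With library totals, 11 were higher and 6 lower. Of 83 DNA repair genes 17 fell (20.5%, the share among all genes) and 8 rose (9.64%). SETMAR, a methyltransferase fused to a transposase, had 7.96, 7.18 and 7.04 CPM in the IgG libraries and 3.71, 3.81 and 3.91 CPM in the antagonist libraries, the largest fall under the naming rule (-0.96 ± 0.14, adjusted p = 0.000473), and the end-joining proteins XRCC4 (-0.74 ± 0.18, or -0.42 without the trends) and XRCC6 (-0.38 ± 0.06) fell. WRN (0.36 ± 0.09) and the telomerase subunit TERT (0.63 ± 0.14, or 0.37 without the trends) rose, the latter from 5.70, 4.92 and 5.999 CPM to 8.34, 7.89 and 9.42 CPM. In the DNA repair list the count of members higher was 18 with library totals, 4 without antagonist library 1 and 5 without antagonist library 3, and that of members lower was 8 with library totals or without antagonist library 1 and 10 without IgG library 2, and its median was 0.03 with library totals. With library totals, 18 were higher and 8 lower.

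**Figure D5:**
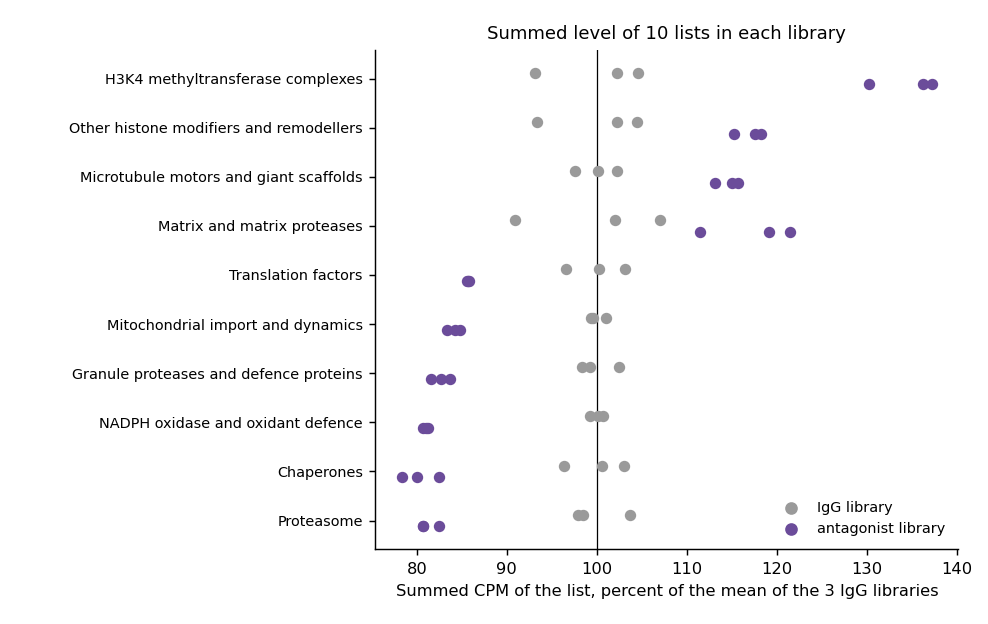
Summed CPM of the tested members of 10 lists in each library, as a percent of the mean of the 3 IgG libraries. Antagonist libraries reach 137% for the H3K4 complexes and lie between 80.6% and 82.4% for the proteasome, and in all 10 lists the 2 groups do not overlap. The 10 are a selection, and other lists did overlap, among them ITIM and ITAM signalling, solute carriers and the lysosome.

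Among lncRNA genes more were called higher than lower. Of 794 lncRNA genes 169 rose (21.3%) and 17 fell (2.14%), with a median of 0.26, against 14.9% and 22.5% of 12305 protein-coding genes with a median of -0.03. In the lowest quintile of all genes by mean CPM the median was 0.19, with 9.03% higher and 1.85% lower, and the part of low level in the lncRNA counts was not tested. A list of 538 long intergenic and antisense RNAs held 110 higher and 6 lower. With a minimum mean of 5 CPM, 162 of that list were tested, 77 higher and 3 lower. In the long intergenic and antisense RNA list the count of members higher was 67 without antagonist library 1, and that of members lower was 2 with library totals or without IgG library 1 or antagonist library 1 and 3 without IgG library 2. The lncRNA genes took 1.01%, 0.962% and 0.935% of counts in the IgG libraries and 1.10%, 1.11% and 1.09% in the antagonist libraries, without overlap. Of 415 transcribed pseudogenes 109 rose and 31 fell. LINC00999 had 4.36, 4.33 and 5.999 CPM in the IgG libraries and 9.66, 10.5 and 9.20 CPM in the antagonist libraries (1.00 ± 0.15), MEIS1-AS2 rose by 0.99 ± 0.12 and SLC25A25-AS1 by 0.87 ± 0.12. The snoRNA host gene SNHG5, whose message is spliced around small nucleolar RNAs, changed by -0.50 ± 0.09 (-0.31 without the trends). Antisense genes overlap a partner on the other strand, and the strand setting of the counting is not given in the sources used here, so their reads and those of the partner cannot be told apart. The numbered zinc finger genes, mostly KRAB repressors, were higher in 66 of 369 and lower in 12 (median 0.12). ZNF862 rose by 0.59 ± 0.06 (0.33 without the trends) and ZNF445, a regulator of imprinted genes, by 0.50 ± 0.06 (0.20 without the trends). In the zinc finger list the count of members higher was 100 with library totals and 42 without antagonist library 1, and that of members lower was 2 with library totals or without antagonist library 3, 26 without the trends, 4 without IgG library 2 and 5 without antagonist library 1, and its median was 0.20 with library totals.

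Of the 15 largest rises under the naming rule, several belong to no list. The pseudogene LDC1P led with 4.09, 4.33 and 3.67 CPM in the IgG libraries and 11.9, 10.4 and 11.6 CPM in the antagonist libraries (1.49 ± 0.13, adjusted p = 6.37e-05). ZBED6, a transposon-derived repressor carried within another gene, had 14.4, 15.7 and 13.8 CPM in the IgG libraries and 28.3, 30.3 and 29.3 CPM in the antagonist libraries (1.00 ± 0.09), and the phosphoglycerate mutase of muscle, PGAM2, rose by 0.94 ± 0.15. Among the largest falls, PRKAR2B, a regulatory subunit of protein kinase A, changed by -0.77 ± 0.17, HACD1, an enzyme of very long fatty acid synthesis, by -0.75 ± 0.14, ISCA1, an iron-sulphur assembly protein, by -0.71 ± 0.15, and SERTAD1, a coactivator of E2F, by -0.68 ± 0.14. The naming rule admitted only genes whose groups did not overlap, so this held for these 7 genes in advance.

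Within functional lists, the direction of change ran with transcript length more widely than in the examples above. Of 44 lists with at least 3 members higher and 3 lower, the members higher had the longer median transcript in 43, the exception being the long intergenic and antisense RNAs. For actin regulators the medians were 6008 and 1981 bases, for secretion 6403 and 2711, for autophagy 13889 and 2436, and for interferon-stimulated genes 4454 and 1134. After removal of the trends 5574 genes were called, 2021 higher and 3553 lower, so that 36.3% of calls were higher. KMT2D, HSPG2, PVRIG, PSMB3, HSPA8, PRDX5 and CTSG kept their direction and passed the threshold in that fit.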

How the data were processed

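RNA sequencing of 6 U937 libraries was used. Per the submitters' processing notes HISAT2 and Cufflinks were run on hg38, versions and roles being not given in the sources used here. The authors deposited raw counts per gene. The count table has 28395 lines, and 570 lines with no gene symbol were left out (0.0678% to 0.0767% of counts in the IgG and 0.0981% to 0.105% in the antagonist libraries). Genes were filtered with filterByExpr, scaled by TMM and tested with edgeR 4.0.16 (R 4.3.3), using its quasi-likelihood test in robust form, and p-values were adjusted by Benjamini-Hochberg over all 13778 genes tested (threshold 0.05). Depth was 17053190 to 18833088 counts per library.

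Alternatives were library totals, DESeq2 size factors, upper quartile factors, DESeq2's Wald test (1.42.0), other filters, glmTreat at 1.2-fold, removal of transcript length and GC trends (both known for 97% of tested genes), and leaving out each library. The test was checked on simulated data with 100 genes changed by 1.5-fold and 100 by 2-fold, in both directions. It recovered 77 and 89 of them, with 16 false calls among 13668 genes tested. Set against the recovered genes, the share of false calls among all calls was above the adjusted p threshold used here. The simulation held no length or GC trend and far fewer changed genes than were called here. Members and gene lists were chosen with earlier results of these data known. Genes named are the 15 largest rises and falls with a mean of at least 5 CPM and no overlap between groups, the 10 most abundant called genes, up to 3 called members of each list in each direction by p, the 5 largest changes of non-coding genes each way, and identity markers. Members of the ribosomal, respiratory chain and cell cycle lists were left out of the 15 largest changes and the 10 most abundant genes. Non-overlap was a condition of the 15 largest rises and falls, KMT2D, HSPG2 and PVRIG among them, so it is no result for them. Others were named after their values were seen, and not every gene that met these rules is given with values. Promoters are from RefSeq (GRCh38.p14), matched by symbol for 10555 genes. Transcript lengths and GC contents are those of the longest transcript of each gene in the reference annotation.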

Additional observations from a re-analysis of the deposited data

Results flagged for a closer look

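Lines of the count table without a gene symbol, which entered no comparison, took a mean of 0.103% of counts in the antagonist libraries. Their share was 0.105%, 0.0981% and 0.105% there and 0.0678%, 0.0732% and 0.0767% in the IgG libraries, so the groups did not overlap.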

How the results depend on the processing

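No paired analysis was possible because the columns of a group carry the same name with no replicate number. The count of genes past the threshold ranged from 3143 to 5075 when 1 library was left out, the higher genes from 1374 to 2474 and the lower genes from 1769 to 2601. It was 3143 without antagonist library 1 (1374 higher, 1769 lower) and 3190 without antagonist library 3 (1419 and 1771). With library totals the lower genes numbered 1597. Tested against a 1.2-fold change by glmTreat, 751 genes passed, 494 higher and 257 lower. Higher calls were 43.1% of all calls, 65.4% with library totals, 36.3% without the trends, 65.8% by glmTreat and 52.4% with a minimum mean of 5 CPM. DESeq2's Wald test called 4309 genes and 5394 passed with no filter. Of 223 genes given with values, 220 passed, and 218 of these passed in each of the 6 fits without 1 library, the exceptions being CD300LF and CD6. These genes were partly chosen with their values seen, so the 218 does not measure how stable calls were. Other called genes of the naming rule that lost their call in such fits, such as ACTB, P4HB and GPR183, are given no values. Of all 4978 calls, 3104 were shared with the fit without antagonist library 1. ELANE, not called in the report, passed without the trends (log2 fold change -0.14, adjusted p = 0.00796 by edgeR). In glmTreat 100 of the 220 no longer passed. Of 136 list counts, 69 moved by more than 1.5 times with library totals, 124 by glmTreat, 50 without the trends, 63 without antagonist library 1 and 60 without antagonist library 3. Counts of few members moved by small numbers. The cause was not tested. LILRB3, CD14 and HLA-DRA had too few counts to test.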

Other observations

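Genes outside the functional groups above included some read from the mitochondrial genome or resembling it. The mitochondrial ribosomal RNA RNR2 had 13165, 12338 and 12491 CPM in the IgG libraries and 9029, 9721 and 9102 CPM in the antagonist libraries (-0.45 ± 0.05, adjusted p = 0.00022 by edgeR's quasi-likelihood test). The mitochondrial tRNA genes TRNY and TRNN changed by -0.87 ± 0.13 and -0.73 ± 0.10, and MTRNR2L1, a nuclear copy of the ribosomal RNA gene that can share its reads, by -0.95 ± 0.14. In RNR2 the antagonist libraries lay below the IgG libraries. TRNY, TRNN and MTRNR2L1 come from the 15 largest falls, for which this was a condition. Of 217 solute carriers tested 35 rose (16.1%) and 28 fell (12.9%). In the solute carrier list the count of members higher was 56 with library totals, 18 without antagonist library 1 and 21 without antagonist library 3, and that of members lower was 13 with library totals, 55 without the trends, 14 without IgG library 2 or antagonist library 1, 18 without antagonist library 2 and 15 without antagonist library 3, and its median was -0.03 without the trends. Without the trends, 29 were higher and 55 lower. Of 60 ion channel and calcium handling genes 12 rose and 17 fell. In the ion channel list the count of members higher was 4 without the trends, 7 without antagonist library 1 and 6 without antagonist library 3, and that of members lower was 9 with library totals and 10 without IgG library 2 or antagonist library 1 or 3, and its median was 0.06 with library totals. With library totals, 15 were higher and 9 lower.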
